A study of Homo sapiens with 6 samples.

Results

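The genes described here encode protease-activated receptors (PARs) and the proteins that start coagulation and plasminogen activation at the cell surface. They are the 9 genes F2R, F2RL1, F2RL2, F3, PLAU, PLAT, PLAUR, SERPINE2 and SERPINB2, found by symbol among the 58735 genes of the expression table. The set shares a function and was selected on its FPKM in these same 6 libraries, so its levels, fold changes and their side of the threshold are given as a description, and no p-value is given for any of the 9.

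RNA was sequenced from SK-MES-1, a human cell line from a lung squamous cell carcinoma, in 3 groups of 2 libraries. The study set cells with a transient knockdown of KRT6A, a keratin gene, beside control cells, and its libraries are named NC, si1 and si2. NC is read here as the control and si1 and si2 as separate knockdowns. What these short names stand for, and which reagents were used, is not stated in the labels, nor is whether the replicates were separate cultures. If they were not, the tests measure only the spread between these libraries, which may be technical. All libraries come from 1 cell line. Values are FPKM, fragments per kilobase of gene length scaled to library depth. Levels set side by side between genes depend on the length given for each, such as 2950 bases for PLAU and 6618 for PLAT. Whether these lengths match the transcripts made was not tested. Each library held 14948607 to 17401392 reads, recovered from the FPKM, and the 9 genes rested on 225 to 4978 reads per library.

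PARs are receptors that carry their own ligand. A protease cuts the outer end of the receptor, and the new end folds back and activates it. PAR1 (F2R) and PAR3 (F2RL2) are cut by thrombin, while PAR2 (F2RL1) is cut by trypsin-like proteases and by the complex of tissue factor with coagulation factors VII and X. Tissue factor, the product of F3, starts coagulation. Urokinase (PLAU) and tissue plasminogen activator (PLAT) turn plasminogen into plasmin, the uPA receptor (PLAUR) holds urokinase at the cell surface, and serpins inhibit both activators. Carcinoma cells commonly express several of these genes, and plasmin breaks down fibrin and matrix.

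The bonds at which these proteins are cut can be read in the coding sequence. The following 30-base stretches, from GENCODE release 29 transcripts on hg38, are shown because they set the 3 receptors apart and mark the bait of the 2 serpins. In the receptors the capitals mark the first 6 codons of the tethered ligand, right after the cut. In the serpins they mark the pair of codons on either side of the bond that the target protease attacks.
F2R: ttagatccccggTCATTTCTTCTCAGGAAC
F2RL1: tctaaaggaagaAGCCTTATTGGTAAGGTT
F2RL2: ttacccattaagACCTTTCGTGGAGCTCCC
SERPINB2: gttatgacagggAGAACTggacatggaggc
SERPINE2: attctcattgcaAGATCAtcgcctccctgg

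The 3 receptor stretches lie on chromosome 5, each within exon 2 of 2. That of F2R is at chr5:76732337-76732366 (plus strand) and starts its ligand at codon 42. That of F2RL1 is at chr5:76832704-76832733 (plus strand), with the ligand from codon 37. That of F2RL2 is at chr5:76618575-76618604 (minus strand), with the ligand from codon 39. The codon before the cut is for arginine in F2R and F2RL1 and for lysine in F2RL2. The SERPINB2 stretch is at chr18:63903183-63903212 (plus strand) in exon 8 of 8, and the SERPINE2 stretch at chr2:223977593-223977622 (minus strand) in exon 8 of 9. In both serpins the first marked codon is for arginine.

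The cells carried no detectable KRT6A, which had 0 reads in each of the 6 libraries, NC included, so neither the knockdown nor the labels of the libraries could be checked from its target. The cell line and the groups are given as the series and its labels name them. The limit that a count of 0 allows, taken as 3 reads, was 0.0583 to 0.0678 FPKM. Of 6 markers of simple epithelium, 5 reached a mean of 1 FPKM, while the adherens junction gene CDH1 was at 0.13. Of 6 squamous and basal markers only TP63 did, at a mean of 7.78 FPKM, and KRT6A and DSG3 had no reads. The summed squamous markers were at 6.02 to 6.69 FPKM in NC, 5.58 to 6.002 in si1 and 11.7 to 13.9 in si2. By mean level this sum was mostly TP63, with SOX2 next at 0.524 FPKM. The summed simple epithelial markers were at 355 to 379 FPKM in NC, 370 to 376 in si1 and 264 to 277 in si2. Of 5 fibroblast markers 2 reached 1 FPKM, with COL1A2 at 0. The sum of the 5 was 17.1 to 17.5 FPKM in NC, 20.004 to 24.99 in si1 and 22.8 to 23.4 in si2. By mean level it was mostly COL1A1, at 18.8 FPKM, with PDGFRB next at 1.37. The 4 endothelial markers summed to at most 0.448 FPKM, with CDH5 at 0. Of 4 platelet and megakaryocyte markers only PF4 reached 1 FPKM, at a mean of 1.06, and their sum was at most 1.90 FPKM, with PPBP at 0. The 4 hepatocyte markers summed to at most 0.313 FPKM, with F9 and APOA1 at 0. Of 5 leukocyte markers 2 reached 1 FPKM, HLA-DRA at 5.49 and CD14 at 1.17, with PTPRC at 0.0608 and CD3E at 0. Their sum was 5.85 to 8.18 FPKM in NC, 6.20 to 6.87 in si1 and 6.25 to 7.33 in si2. The part of these shifts in the results was not tested.

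Urokinase was the most abundant of the 9 transcripts in every group. In NC the order of mean levels was PLAU, SERPINB2, F2RL1, F2RL2, PLAT, PLAUR, F2R, SERPINE2 and F3. The libraries of PLAUR and F2R overlapped there, as did those of SERPINE2 and F3. PLAU lay above 97.5% of the 12319 genes whose mean was 1 FPKM or more, and F3, the lowest of the 9, above 66.1%. All 9 genes passed that filter. In si1 the order was PLAU, SERPINE2, F2RL2, PLAT, F2R, F3, F2RL1, PLAUR and SERPINB2. SERPINB2, next to PLAU in NC, was thus last there, and F2RL1 was below 6 of the 8 others. In si1 F2RL2 overlapped PLAT, F3 overlapped F2RL1, and PLAUR overlapped SERPINB2. In si2 the order was PLAU, F2RL1, SERPINB2, PLAT, F2RL2, F2R, PLAUR, SERPINE2 and F3, with overlaps of PLAT with F2RL2 and of SERPINE2 with F3.

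**Figure D1:**
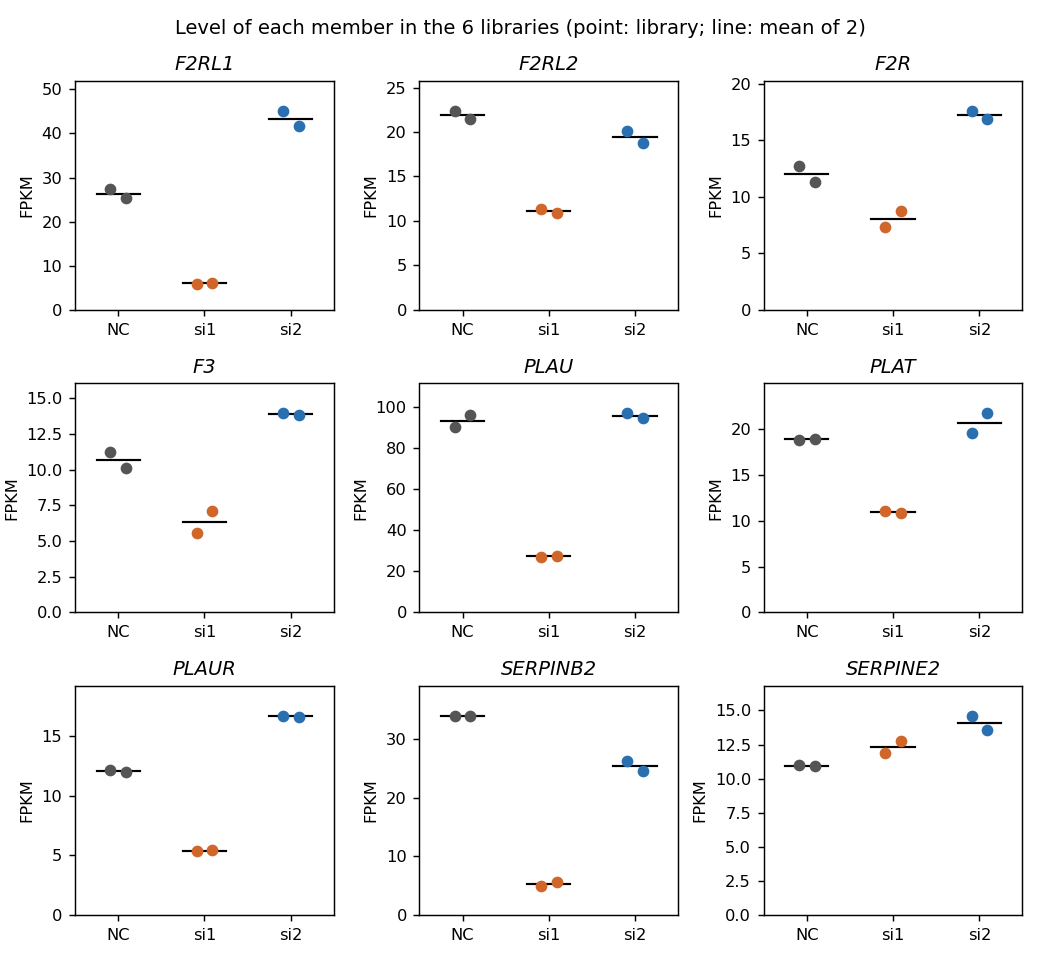
FPKM (vertical axes, each from 0) of the 9 genes in the 2 NC, 2 si1 and 2 si2 libraries; points are libraries and lines the means of 2. Both si1 points lie below both NC points for every gene but SERPINE2.

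The same fit was made for all genes. A gene is said to have risen or fallen where limma, fitted to log2(FPKM + 1) of all 6 libraries, gave a Benjamini-Hochberg adjusted p under 0.05 over the 12319 genes tested. Fold changes are on that log2 scale with limma's standard error (SE), and they understate the change of low genes. For the 9 genes the words state only on which side of the threshold the value lay, and are no evidence, since the same libraries chose them. In si1 against NC, 8 of the 9 genes were past it below NC and 0 above, with a median log2 fold change of −0.92, where 22.4% of all genes tested were called, 12.9% lower and 9.47% higher, and the median was −0.01. In si2 against NC, 4 were past it above and 1 below (median 0.34), where 29% of all genes were called, 13.6% higher and 15.4% lower, and the median was 0.00. In si2 against si1, 8 were higher and 0 lower (median 1.03), where 38.5% of all genes were called, 19.9% higher and 18.6% lower. The libraries of si1 and NC did not overlap in any of the 9 genes, 8 with si1 below and 1 with si1 above, beside 32.4% and 30.1% of all genes. In si2, 6 lay above NC and 2 below without overlap, beside 35% and 34.5% of all genes, and all 9 lay above si1, beside 36.3%. Since these levels were known when the 9 genes were chosen, nothing is read from the counts. The si1 and si2 comparisons share the NC libraries. Without NC replicate 1 the count in si1 was 6 of 9. In si2 it was 3 without NC replicate 1, 2 without NC replicate 2, and 3 without either si2 library. The counts over all genes also moved, from 2758 to 1093 and 1255 in si1 without NC replicate 1 or 2. From 3578 in si2 they moved to 1648 and 1491 without these libraries, and to 1652 and 1944 without si2 replicate 1 or 2. In si2 against si1 they moved from 4743 to 2938 without si2 replicate 1.

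**Figure D2:**
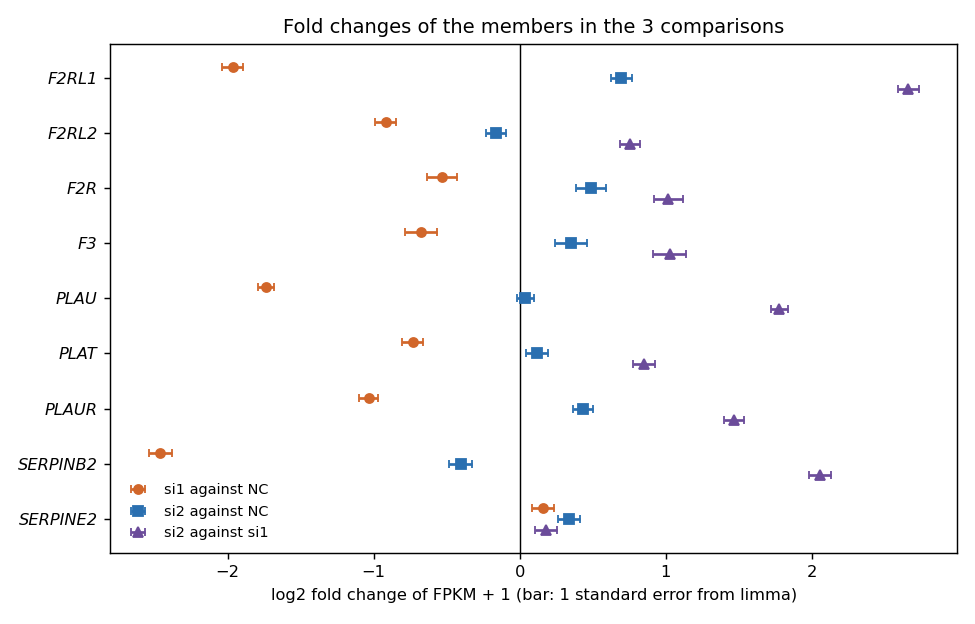
Log2 fold change of FPKM + 1 (horizontal axis) of each gene in si1 against NC (circles), si2 against NC (squares) and si2 against si1 (triangles), with 1 SE from limma. The si1 values run from −2.46 to 0.16 and the si2 values from −0.41 to 0.70.

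Among the receptors, F2RL1 moved most, down in si1 and up in si2. F2RL1 (ENSG00000164251, chr5:76818933-76835315, plus strand) encodes PAR2, the trypsin receptor. It was at 27.3 and 25.4 FPKM in NC, 5.996 and 6.01 in si1, and 45.1 and 41.6 in si2. The 3 groups did not overlap. Its si1 mean was 22.8% of the NC mean (log2 fold change −1.96, SE 0.0731), and its si2 mean 1.64 times the NC mean (0.70, SE 0.0731). The level in si2 was thus 7.22 times that in si1, on means of 43.4 ± 2.46 and 6.004 ± 0.0114 FPKM (SD, n = 2).

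F2R (ENSG00000181104, chr5:76716043-76735781, plus strand), which encodes the thrombin receptor PAR1, moved the same way by less. Its libraries were at 12.7 and 11.3 FPKM in NC, 7.30 and 8.73 in si1, and 17.6 and 16.8 in si2. The groups were again apart, with si1 lowest and si2 highest. F2R fell by 0.53 log2 units in si1 and rose by 0.49 in si2 (SE 0.1004 in both). The fall did not pass the threshold without NC replicate 1 (−0.45), and the rise did not without NC replicate 2 (0.41), si2 replicate 1 (0.46) or si2 replicate 2 (0.52). Both calls were also lost with no filter on low values.

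F2RL2 (ENSG00000164220, chr5:76615482-76623434, minus strand) encodes PAR3, which in some cells acts mainly as a partner of other PARs. It was at 22.4 and 21.4 FPKM in NC, 11.4 and 10.9 in si1, and 20.2 and 18.8 in si2. Both si1 libraries were well below the rest. F2RL2 fell by 0.92 log2 units in si1 (SE 0.0708), while the si2 difference of −0.16 (SE 0.0708) did not pass the threshold. The last PAR gene, F2RL3, had 1 to 23 reads per library and 0.0164 to 0.438 FPKM, and was not tested.

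The makeup of the receptor transcripts differed between the groups. Summed over the 4 PAR genes, the FPKM were 62.7 and 58.1 in NC, 24.7 and 25.7 in si1, and 83.2 and 77.7 in si2. F2RL1 made up 43.7% ± 0.0499 of the sum in the controls (SD, n = 2), 23.8% ± 0.608 in si1 and 53.9% ± 0.436 in si2. F2RL2 made up 36.3% ± 0.816 in NC, 44.1% ± 2.58 in si1 and 24.2% ± 0.0457 in si2. F2R took 19.9% ± 0.633, 31.7% ± 3.16 and 21.4% ± 0.377. F2RL1 was thus the leading receptor transcript in NC and si2, and F2RL2 in si1. These are shares of FPKM in bulk samples, in which fewer cells with a transcript and less transcript per cell cannot be told apart.

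The 3 receptor genes lie within 219.8 kb of chromosome 5. F2RL2 sits on the opposite strand inside IQGAP2, a scaffold protein gene that had 1 to 11 reads per library. Other genes that overlap the 9 had at most 21 reads per library, a count reached by C10orf55, which overlaps PLAU on the opposite strand. How reads shared by overlapping genes were counted is not given in the sources used here, and their part in the counts was not tested. Within 300 kb of the receptor genes, the other protein-coding genes tested were AGGF1 and ZBED3. AGGF1, an angiogenic factor gene, averaged 4.49 FPKM in the controls, 5.51 in si1 and 6.87 in si2. It rose in si2 (0.52, SE 0.108, adjusted p = 0.0132, limma) and differed in si1 by 0.24 (SE 0.108, adjusted p = 0.159). ZBED3 passed in neither group (adjusted p = 0.764 in si1 and 0.499 in si2). These 2 neighbours were looked at after the values of the receptors were known.

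**Figure D3:**
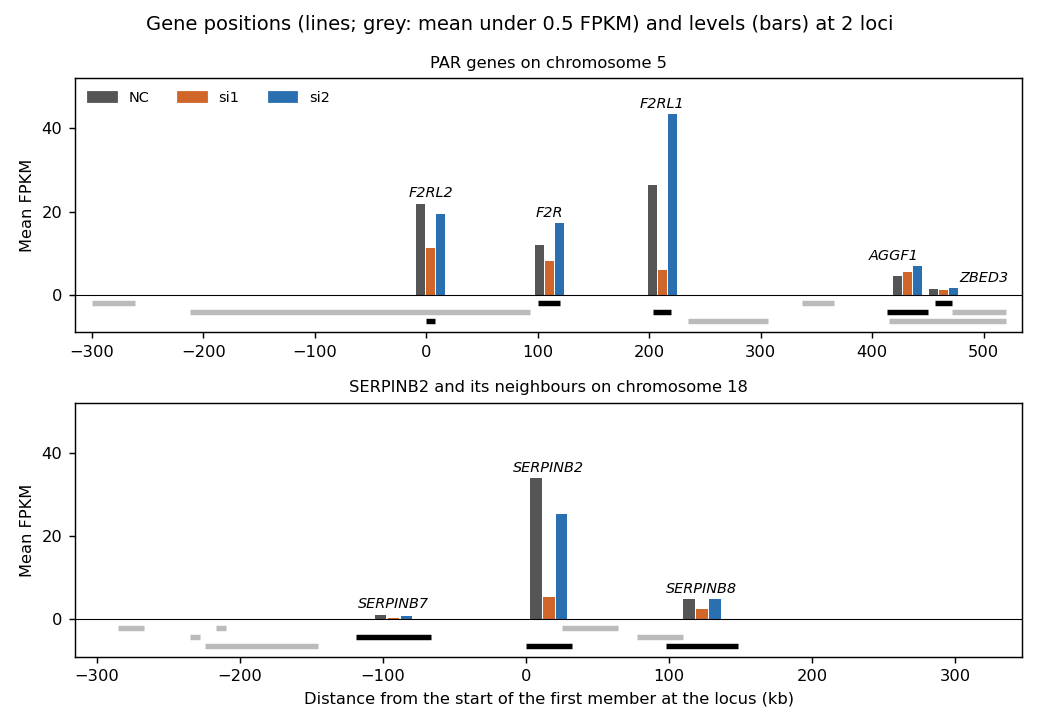
Mean FPKM (vertical axes) of the protein-coding genes at the PAR genes (top) and at SERPINB2 (bottom) in NC, si1 and si2, against the distance in kb from the first of the 9 genes there; lines show gene positions, in grey where the mean is under 0.5 FPKM. F2RL1 and SERPINB2 stand out in si1, at 6.004 and 5.35 FPKM.

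The tissue factor gene was lowest in si1 and highest in si2. F3 (ENSG00000117525, chr1:94529225-94541800, minus strand) was at 11.3 and 10.1 FPKM in NC, 5.57 and 7.13 in si1, and 13.9 in both si2 libraries. No si1 library reached the NC range, and both si2 libraries lay above it. F3 fell by 0.68 log2 units in si1 (SE 0.112), but not past the threshold without NC replicate 1 (−0.60). The difference of 0.35 in si2 (SE 0.112) did not pass the threshold, though the same difference did over the genes averaging 5 FPKM or more and without either si1 library.

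Of the plasminogen activators, urokinase was lower in si1 and close to NC in si2. PLAU (ENSG00000122861, chr10:73909177-73917497, plus strand) was at 90.5 and 96.1 FPKM in NC, 27.1 and 27.4 in si1, and 97.0 and 94.9 in si2. The si2 libraries overlapped the NC libraries. The si1 mean was 29.2% of the NC mean (−1.74, SE 0.0577), and the si2 mean 1.03 times the NC mean (0.04, SE 0.0577). In si2 against si1 the log2 difference was 1.78 (SE 0.0577).

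PLAT (ENSG00000104368, chr8:42175233-42207724, minus strand), the activator best known from fibrin clots, was at 18.8 and 18.9 FPKM in NC, 11.03 and 10.8 in si1, and 19.5 and 21.7 in si2. It fell by 0.73 log2 units in si1 (SE 0.0735), and the si2 difference was 0.12 (SE 0.0735), not past the threshold. In FPKM, PLAU was at 4.95 ± 0.187 times PLAT in the controls (SD, n = 2), 2.49 ± 0.0509 times in si1 and 4.67 ± 0.419 times in si2. The urokinase transcript was therefore reduced by more than the tissue-type one in si1.

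PLAUR (ENSG00000011422, chr19:43646095-43670547, minus strand), the receptor that anchors urokinase, was at 12.2 and 11.98 FPKM in NC, 5.37 and 5.42 in si1, and 16.7 and 16.6 in si2. Its 3 groups did not overlap, and the replicates were close. PLAUR fell by 1.03 log2 units in si1 (SE 0.0666) and rose by 0.43 in si2 (SE 0.0666). The ratio of PLAU to PLAUR was 7.41 and 8.02 in NC, 5.05 and 5.06 in si1, and 5.79 and 5.71 in si2, so it was lower in si1 and si2 than in either NC library.

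The serpin genes did not move together. SERPINB2 (ENSG00000197632, chr18:63871692-63903890, plus strand) encodes PAI-2, an inhibitor of urokinase that is kept largely inside cells. It was at 33.9 and 34.0 FPKM in NC, 5.01 and 5.70 in si1, and 26.2 and 24.6 in si2. All si1 and si2 libraries lay below the NC libraries, with those of si1 the lowest. Its si1 mean was 15.8% of the NC mean (−2.46, SE 0.0781), and its si2 mean 74.8% (−0.41, SE 0.0781). The si2 fall did not pass the threshold without NC replicate 1 (−0.41), NC replicate 2 (−0.40) or si2 replicate 2 (−0.36).

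SERPINE2 (ENSG00000135919, chr2:223975112-224039319, minus strand) encodes protease nexin 1, which inhibits thrombin as well as urokinase. It was at 10.97 and 10.9 FPKM in NC, 11.9 and 12.8 in si1, and 14.6 and 13.6 in si2. Both si1 libraries lay slightly above NC (0.16, SE 0.0745, not past the threshold). SERPINE2 rose by 0.34 in si2 (SE 0.0745), but not past the threshold without NC replicate 1 (0.34), NC replicate 2 (0.33) or si2 replicate 1 (0.29).

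Beyond the 9 genes, other genes of the same systems were listed by their roles, with earlier results of these data known. Of 112 such genes, 51 were tested. In si1 against NC, 5 rose and 12 fell (median 0.00), beside 9.47% and 12.9% of all genes. In si2 against NC, 12 rose and 4 fell (median 0.01), beside 13.6% and 15.4%. In si2 against si1, 17 were higher and 8 lower, beside 19.9% and 18.6%. Without NC replicate 1 or 2, 10 and 9 were called in si1 in place of 17. In si2, 8, 6, 6 and 7 were called in place of 16 without NC replicate 1, NC replicate 2, si2 replicate 1 and si2 replicate 2.

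In the plasminogen system, 1 of 13 tested genes fell in si1 and 0 rose, beside 12.9% and 9.47% of all genes. The gene that fell was VLDLR, an endocytic receptor that clears complexes of urokinase with its inhibitors. VLDLR averaged 8.65 ± 0.379 FPKM in the controls (SD, n = 2), 5.15 ± 0.152 in si1 and 10.9 ± 0.26 in si2. It fell in si1 (−0.65, SE 0.0743, limma adjusted p = 0.00156) and rose in si2 (0.30, SE 0.0743, adjusted p = 0.0226), the latter not past the threshold without any 1 of the NC or si2 libraries or with no filter on low values.

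PLAU and PLAT together were at 109 and 115 FPKM in NC, 38.2 and 38.3 in si1, and 116.46 and 116.54 in si2. The summed activator transcripts were thus lower in both si1 libraries than in any other, and the si2 sums lay just above those of NC.

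**Figure D4:**
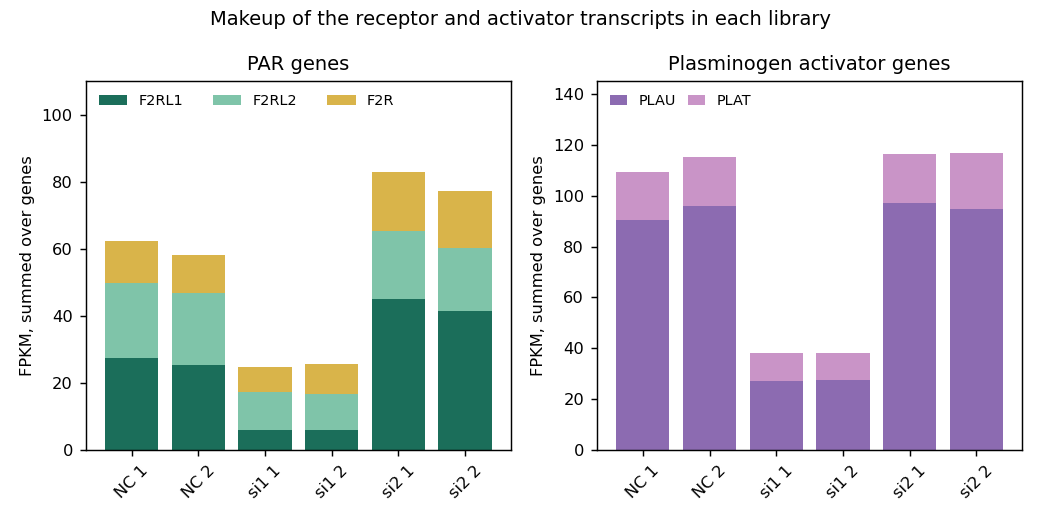
FPKM summed over the PAR genes F2RL1, F2RL2 and F2R (left; F2RL3, at most 0.438 FPKM, is not drawn) and over the plasminogen activator genes PLAU and PLAT (right), in each library. The si1 bars are the lowest. With F2RL3 added, the receptor sums there are 24.7 and 25.7 FPKM, and the activator sums are 38.2 and 38.3.

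ENO1, a glycolytic enzyme that also binds plasminogen at the cell surface, averaged 605 ± 5.10 FPKM in the controls (SD, n = 2), 664 ± 10.9 in si1 and 426 ± 2.92 in si2. It fell in si2 (−0.51, SE 0.0425, limma adjusted p = 4.71e-04). ANXA2 and S100A10, which form a plasminogen-binding complex, were at 293 and 181 FPKM in NC. Neither passed the threshold against NC, with limma adjusted p = 0.322 and 0.0929 in si1 and 0.212 and 0.746 in si2. PLGRKT, a plasminogen receptor gene, was at 26.3 and 25.5 FPKM in NC, 20.2 and 24.5 in si1, and 23.8 and 24.1 in si2. It passed the threshold against NC in neither group (−0.21 and −0.11, SE 0.093, limma adjusted p = 0.159 and 0.422), and is named after its values were seen. In si2, 4 of the 13 rose and 2 fell, beside 13.6% and 15.4% of all genes. ITGB3, an integrin chain, rose from 1.81 ± 0.111 FPKM to 4.09 ± 0.00853 (0.85, SE 0.108, adjusted p = 0.002), and CTSB, a lysosomal protease, from 61.6 ± 1.35 to 105 ± 1.80 (0.76, SE 0.0561, adjusted p = 3.1e-04). ITGB1, another integrin chain, was the remaining gene that rose (0.23, SE 0.0549, adjusted p = 0.0222). It was not called without any 1 of the NC or si2 libraries, with no filter on low values or with no variance trend, and it is named because it completes the count, after its value was seen. LRP1, another clearance receptor, fell in si2 (−0.46, SE 0.129, adjusted p = 0.0349), but not past the threshold without any 1 of the NC or si2 libraries, with no filter on low values or with no variance trend. The plasminogen gene PLG itself had at most 1 read in any library.

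Among coagulation genes and their regulators, 1 of 12 tested was called higher and 6 lower for si1, beside 9.47% and 12.9% of all genes. For si2, 3 were called higher and 1 lower, beside 13.6% and 15.4%. Regulators of the tissue factor and thrombin steps were among the called genes. TFPI2, a Kunitz inhibitor of plasmin, trypsin and tissue factor with factor VII, was at 14.2 and 15.5 FPKM in NC, 8.53 and 8.70 in si1, and 28.0 and 27.4 in si2. Its groups were apart, in the order seen for F2RL1. TFPI2 fell in si1 (−0.72, SE 0.0715, limma adjusted p = 9.55e-04) and rose in si2 (0.86, SE 0.0715, adjusted p = 4.71e-04). TFPI, the main inhibitor of tissue factor, was at 24.6 ± 1.80 FPKM in NC (SD, n = 2) and 24.6 ± 1.02 in si1, and rose to 39.7 ± 0.424 in si2 (0.67, SE 0.0727, adjusted p = 0.0012).

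THBD, the gene of thrombomodulin, which redirects thrombin towards protein C, fell in si1 from 12.2 ± 0.339 to 6.86 ± 0.354 FPKM (SD, n = 2; −0.75, SE 0.0737, limma adjusted p = 9.18e-04). PROCR, the endothelial protein C receptor gene, fell in si1 (−0.39, SE 0.072, adjusted p = 0.00958) and in si2 (−0.29, SE 0.072, adjusted p = 0.0255). Neither PROCR call held without NC replicate 1 or without NC replicate 2, and the si2 call was also lost without either si2 library and with no filter on low values. F8, the gene of coagulation factor VIII, fell in si1 (−0.47, SE 0.0873, adjusted p = 0.0105) and rose in si2 (0.35, SE 0.0873, adjusted p = 0.0257). The F8 calls were lost without NC replicate 1 or 2, and that in si2 also without either si2 library and with no filter on low values. The 1 gene of the list that rose in si1 was PROS1, the protein S gene (0.59, SE 0.115, adjusted p = 0.0121). Its call was lost without NC replicate 1, NC replicate 2 or si1 replicate 2, and with no filter on low values. PROS1 and PROCR are named after their values were seen. ANO6, a scramblase that exposes phosphatidylserine for coagulation complexes, fell in si1 (−0.45, SE 0.0838, adjusted p = 0.0101), but not past the threshold without NC replicate 1 or 2. ANXA5, the most abundant gene of the list, was at 190.4 ± 1.84 FPKM in NC and passed in neither group.

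Most of the listed proteases known to cut PARs were low or absent as transcripts. Of 29 such genes, 26 had a mean under 1 FPKM, and 8 of these had no read in any library. The thrombin gene F2 had at most 4 reads per library, F10 at most 8, and F7 none. ST14, the gene of the membrane protease matriptase, was at 0.274 to 0.495 FPKM. PRSS3, a trypsinogen gene, was at 8.81 and 11.6 FPKM in NC, 5.33 and 4.37 in si1, and 7.84 and 8.31 in si2. PRSS3 fell in si1 (−0.93, SE 0.137, limma adjusted p = 0.00404). Reads of close trypsinogen copies may be split by counting, so PRSS3 is uncertain. LGMN, a lysosomal endopeptidase and the most abundant of the list, averaged 12.1 FPKM in NC and passed the threshold against NC in neither group.

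Of 16 tested genes that carry PAR signals inward, 3 were called higher and 0 lower for si1, beside 9.47% and 12.9% of all genes, and 4 higher and 1 lower for si2, beside 13.6% and 15.4%. GNAI2, an inhibitory G protein subunit, was at 24.3 and 24.7 FPKM in NC, 37.6 and 36.1 in si1, and 18.5 and 19.1 in si2. It rose in si1 (0.57, SE 0.0619, limma adjusted p = 0.00129) and fell in si2 (−0.37, SE 0.0619, adjusted p = 0.0063), the reverse of the order of F2RL1. The si2 fall did not pass the threshold without NC replicate 2 or si2 replicate 1. PLCB3, a phospholipase C, rose in si1 (0.52, SE 0.0699, adjusted p = 0.00273). GNAQ, the G protein subunit upstream of it, rose in si2 (0.60, SE 0.0986, adjusted p = 0.00545). ARRB2, the beta-arrestin 2 gene, rose from 1.78 FPKM to 2.73 in si1 (0.43, SE 0.123, adjusted p = 0.0471) and 2.79 in si2 (0.45, SE 0.123, adjusted p = 0.0326). The ARRB2 call in si1 was lost without any 1 of the 6 libraries, and that in si2 without any 1 of the NC or si2 libraries. Both ARRB2 calls were also lost with the replicate number as a block and with no filter on low values. ROCK1, a kinase downstream of RhoA, rose in si2 (0.40, SE 0.0791, adjusted p = 0.0114), but not past the threshold without NC replicate 2 or either si2 library. RHOA, the most abundant gene of the list, averaged 131 FPKM in the controls, 150.2 in si1 and 150.05 in si2 and passed in neither group.

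Among 7 other serpins tested, 1 was called higher and 4 lower for si1, beside 9.47% and 12.9% of all genes. For si2, 1 was called higher and 0 lower, beside 13.6% and 15.4%. SERPINB1, an inhibitor of neutrophil proteases, fell in si1 from 24.8 ± 1.48 to 14.3 ± 1.203 FPKM (SD, n = 2; −0.75, SE 0.0904, limma adjusted p = 0.00182). SERPINB8, which lies 98.2 kb beyond the start of SERPINB2 on chromosome 18, fell in si1 from 4.803 ± 0.302 to 2.49 ± 0.155 FPKM (−0.74, SE 0.0929, adjusted p = 0.00219). SERPINB9 (−0.45, SE 0.0838, adjusted p = 0.01) and SERPINA1 (−0.48, SE 0.0745, adjusted p = 0.00523) fell there too, the former not past the threshold without NC replicate 2. SERPINB10, which overlaps the end of SERPINB2, had at most 4 reads per library. SERPINB6 rose in both groups (0.31 and 0.26, SE 0.0761, adjusted p = 0.0277 and 0.0423), the call in si1 being lost without any 1 of the libraries but si1 replicate 1, and that in si2 without any 1 of the NC or si2 libraries. Both SERPINB6 calls were also lost with no filter on low values, and that in si2 with the replicate number as a block and with no variance trend. SERPINH1, the most abundant of the list and no protease inhibitor but a collagen chaperone, was at 41.6 FPKM in NC and passed in neither group.

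**Figure D5:**
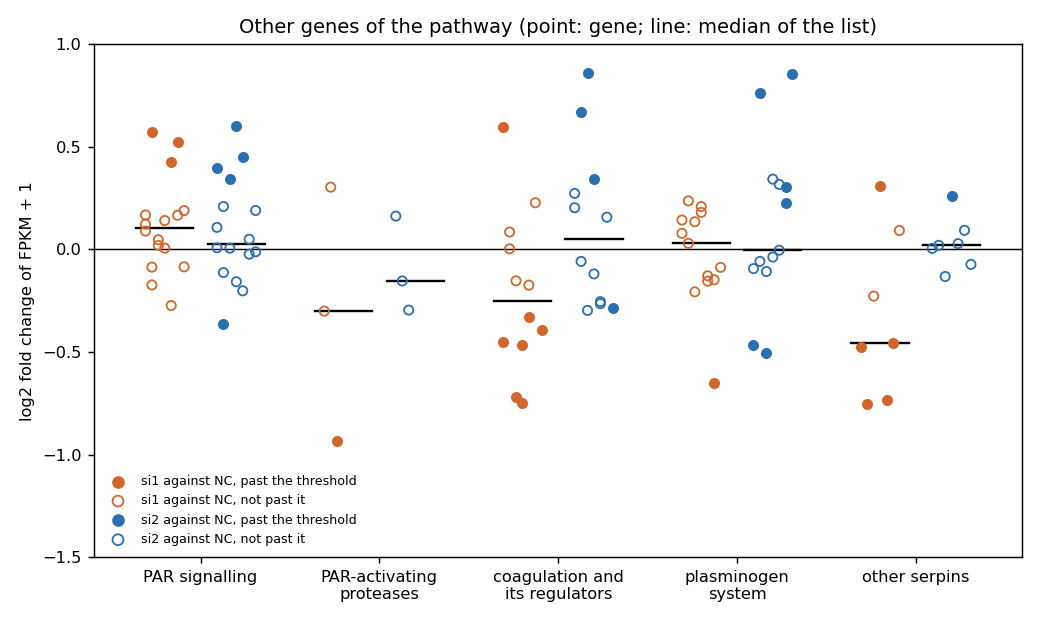
Log2 fold change of FPKM + 1 (vertical axis) of the tested genes in 5 lists, in si1 and in si2 against NC; filled points passed the threshold and lines are list medians. PRSS3, at −0.93 in si1, lies below all other points.

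The genes that followed the pattern of a member most closely over the 6 libraries were named by Pearson's r of log2(FPKM + 1). This is a description with 3 groups behind 6 points. The r does not compare the level of genes or the size of their changes. For F2RL1 they were HMGA2, a chromatin protein gene (29.7, 11.7 and 39.2 FPKM in the control, si1 and si2 libraries), and PLAUR, itself 1 of the 9. For PLAUR they were EXOSC1 (7.397, 5.975 and 8.075 FPKM in NC, si1 and si2) and JAG1, a Notch ligand gene (17.5, 7.92 and 25.1 FPKM). For SERPINB2 they were WIPF1 and MRPL35, and for PLAU DCTN4 and EIF2AK2 (the latter at 13.52, 10.42 and 13.48 FPKM in NC, si1 and si2). EXOSC1 thus changed by less than PLAUR, and EIF2AK2 by less than PLAU. The r ran from 0.9977 to 0.9997. These are the highest values for each member among the 12319 genes tested, so high values follow from the choice.

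The start regions of the 9 genes were searched for short motifs, as a description. RefSeq start regions on GRCh38.p14 matched 7 of the 9 genes, with 9 start sites, and the 250 bases before each were read. F2R and PLAT were not matched. The AP-1 motif TGANTCA, searched on both strands like the others, was in 4 of the 9 start regions (of F3, F2RL2, SERPINB2 and PLAUR), and in 6.57% of all 35116 start regions. The TEAD motif GGAATG stood before F2RL1 only (11.9% of all), the GC box GGGCGG before F3, SERPINE2, F2RL1 and PLAU (42.6%), and the TATA box TATAAA before F3 and SERPINB2 (10.7%). These motifs do not overlap each other in the printed stretches. A match is a run of letters, not a bound site, and the motifs were chosen with the fold changes known.

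The following stretches show the AP-1 matches in capitals, on the strand of the gene. Those of F3 and SERPINB2 hold no annotated exon of their own gene, and the last base of that of F2RL2 is the first of its annotated transcript. Exons of other genes were not looked up.
F3: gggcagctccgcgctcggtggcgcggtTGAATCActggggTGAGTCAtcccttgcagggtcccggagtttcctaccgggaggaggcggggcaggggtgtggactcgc
F2RL2: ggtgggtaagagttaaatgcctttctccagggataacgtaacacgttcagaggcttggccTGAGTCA
SERPINB2: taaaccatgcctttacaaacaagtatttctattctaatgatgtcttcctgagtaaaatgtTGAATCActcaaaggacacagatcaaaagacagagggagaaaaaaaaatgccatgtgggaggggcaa

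The F3 stretch is at chr1:94541903-94542009 (minus strand) and holds 2 matches, the farther one starting 223 bases before the start site. The F2RL2 stretch is at chr5:76623434-76623500 (minus strand), with the match starting 37 bases before the start site. The SERPINB2 stretch is at chr18:63887543-63887669 (plus strand), with the match starting 102 bases before its RefSeq start site. That stretch lies inside the annotated span of the gene, which begins at chr18:63871692. In PLAUR the match TGAGTCA is at chr19:43670349-43670355 (minus strand), 186 bases before the RefSeq start site and inside an exon of another annotated transcript. Of the 4 genes with a match, F3 fell by 0.68 log2 units in si1, F2RL2 by 0.92, PLAUR by 1.03 and SERPINB2 by 2.46. The 3 other genes with a RefSeq start region had no match in the bases searched. Among them F2RL1 fell by 1.96 and PLAU by 1.74, and SERPINE2 did not fall. Bases farther before the start sites were not searched for the motif. Whether the motif has a part in these fold changes was not tested.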

How the data were processed

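The authors deposited FPKM for 58735 genes in 6 libraries, with the genome build hg38 per the submitters' processing notes. Aligner, counter, annotation and strandedness are not given in the sources used here. FPKM times gene length came in whole steps within 0.001 reads for 100% of values, which gave the reads per library. Floors of 3 reads cover counting error only. Genes averaging 1 FPKM or more were tested as log2(FPKM + 1) with limma 3.58.1 in R 4.3.3, two-sided, on all 6 libraries with 1 coefficient per group and a variance trend (3 residual and 4.03 prior degrees of freedom). Alternatives were a pseudocount of 0.1, no filter or a mean of 5 FPKM, each library left out, a replicate block, no trend, and median-ratio scaling.

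The members and lists were chosen with earlier results of these data known. The text names all members, and from each list the 5 called genes with the largest changes, the most abundant gene and regulators fixed by name. Neighbouring genes and motifs were added later. A listed gene that is not reported here was left out of the lists' counts. On simulated reads, 47.8%, 48.5% and 50.7% of genes changed 1.5-fold and 92.4%, 93.9% and 83.6% of those changed 2-fold were recovered for si1 and si2 against NC and for si2 against si1, among 12341, 12375 and 12349 genes.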

Additional observations from a re-analysis of the deposited data

Results flagged for a closer look

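Some genes differed between si1 and si2 in the direction of their change from the shared NC libraries. The listed genes named here were picked because they were called in opposite directions against NC and called in si2 against si1. The adjusted p of that last contrast (limma, Benjamini-Hochberg) is thus a description and no separate test. TFPI2, a Kunitz inhibitor gene, was higher in si2 by 1.58 log2 units (adjusted p = 3.02e-05). VLDLR, a clearance receptor gene, was higher by 0.95 (adjusted p = 1.89e-04) and F8, the factor VIII gene, by 0.81 (adjusted p = 6.56e-04). GNAI2, a G protein subunit gene, was the reverse, at −0.93 (adjusted p = 1.1e-04). The si2 calls of VLDLR, F8 and GNAI2 against NC were lost with some single libraries left out, as was the F8 call in si1.

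For 5 of the 9 genes, both si1 libraries lay below both NC libraries and both si2 libraries lay above them. In si2 against NC, however, F3 and PLAT did not pass the threshold, and the F2R value did not pass it in some alternative runs. The log2 difference of si2 from si1 was 2.66 for F2RL1, 1.47 for PLAUR, 1.03 for F3, 1.02 for F2R and 0.85 for PLAT. All 5 were past the threshold in si2 against si1, which is a description and no independent test, because the levels were known when the genes were chosen. The same order of the 3 groups without overlap was found in 9.74% of all genes tested.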

How the results depend on the processing

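No called value of the 9 genes or the 51 tested listed genes changed direction in any alternative run. Direction was not compared for the other genes. Of 108 values of the 9 genes per comparison, 105 in si1, 95 in si2 and 108 in si2 against si1 kept their side of the threshold. In si1, 3 lost the call, and in si2, 10 lost it and 3 gained it. Without a filter on low values, 1414 genes were called in si1, 1785 in si2 and 3130 in si2 against si1, in place of 2758, 3578 and 4743, and 8 listed genes in si2 in place of 16. That setting adjusts over more genes. With 1 library left out, the counts ran from 1093 to 2429, from 1491 to 4029 and from 2938 to 4337 genes. Of the 9 genes, 6 to 8 were called in si1, 2 to 6 in si2, and 8 each time in si2 against si1. Listed genes ran from 9 to 19, from 6 to 20 and from 18 to 26. The lone library of a group was then assumed to vary like the other groups. The deviations of libraries with the same replicate number correlated at −0.052, 0.0503 and −0.0577 over all genes tested. The numbers thus showed no pairing across these genes as a whole, and pairing in a part of them was not tested. With the replicate block, 2335, 3121 and 4314 genes, 8, 5 and 8 of the 9 genes and 17, 14 and 23 listed genes were called. No scaling moved the median of all genes by 0.1 log2 units. The planned count models on the recovered reads are not reported, because the deposited values are FPKM. Having 2 libraries a group limits the precision.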

Other observations

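Some listed genes were below the filter of 1 FPKM and were not tested, and the following were chosen after their values were seen. PROC, the gene of protein C, was at 0.264 and 0.114 FPKM in NC, 1.201 and 1.44 in si1, and 0.355 and 0.318 in si2, on 5 to 61 reads per library. Both si1 libraries were above the rest. F13A1, the gene of the A chain of the fibrin cross-linking factor XIII, was at 0.344 and 0.109 FPKM in NC, 0.0391 and 0.0756 in si1, and 0.972 and 0.719 in si2, on 3 to 72 reads. Its 3 groups did not overlap. TMPRSS2, a membrane serine protease gene, was at 0.949 and 0.996 FPKM in NC, 0.550 and 0.309 in si1, and 0.818 and 1.09 in si2, on 32 to 107 reads. SERPINB7, a neighbour of SERPINB2, was at 1.41 and 0.842 FPKM in NC, 0.580 and 0.202 in si1, and 0.912 and 0.753 in si2, on 9 to 62 reads. In both TMPRSS2 and SERPINB7 the si1 libraries were the lowest.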
